A study of Mus musculus and Macaca nemestrina with 20 samples.

Results

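Control dorsal root ganglia (DRG) of mouse and of pig-tailed monkey (Macaca nemestrina) were set side by side over the 15336 gene symbols that both species' tables hold. The 10 control samples, of 20 in the series, were taken by their labels. They comprise 7 mouse samples of the genotype labelled ADAM17 flox and 3 monkey samples labelled Vehicle, whose ganglia are described as belonging to control skin. Of the mouse samples, 3 carry the label batch 1 and 4 the label batch 2. The 7 ADAM17 KO mice and the 3 SADBE monkeys of the series were not used here. The series title places the study under natriuretic peptide B in chronic itch. Total RNA of fresh frozen ganglia was sequenced in bulk. The labels give no strain, age, Cre driver, spinal level or number of animals per sample, and a genotype of "na" for the monkeys, so the spread between samples may in part be technical. They do not say whether the samples of a group come from separate animals, and mouse 1 to 7 and monkey 1 to 3 are names of samples here.

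DRG hold the cell bodies of the primary sensory neurons that carry touch, pain, itch, temperature and limb position to the spinal cord. Each neuron is wrapped by satellite glia, and its axon runs with Schwann cells, of which the myelinating kind makes the sheath. Small neurons are commonly divided by the neuropeptides, channels and growth factor receptors they carry, and natriuretic polypeptide B is known in mice as a transmitter of itch neurons that acts in the spinal cord.

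Total estimated counts were 30907687 to 52085645 per mouse and 13700975 to 27111818 per monkey. Mitochondrial genes took 8.22% to 10.9% of counts in batch 1 mice, against 1.40% to 1.76% in batch 2 mice. Levels below are TPM (transcript abundances divided by length), rescaled so that the shared genes of each sample sum to 1000000. The tables of the 2 species were normalized separately, and species cannot be told apart from table, transcriptome and annotation, so no test was run between species. Differences are log2 ratios of group medians, monkey over mouse, on the scale log2(rescaled TPM + 1), which understates differences of genes with low values. A gene is called higher in a species where the 7 mouse and 3 monkey values do not overlap, the medians lie at least 4-fold apart on that scale and the higher median is at least 1. In bulk samples, fewer cells of a type and less RNA per cell cannot be told apart. No 2 samples of a group held the same counts.

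Of the 12938 shared genes with a median of at least 1 in either species, 840 (6.49%) were called higher in monkey and 1594 (12.3%) higher in mouse. Shares of the gene lists below, in brackets, are set beside these 2 shares. The median over all measured genes was -0.34, and 47.5% of them lay within 2-fold. Against batch 1 mice alone the calls were 787 (5.98%) and 2320 (17.6%), and against batch 2 mice alone 1046 (8.16%) and 1595 (12.4%). Called against each batch alone and against all 7 mice were 665 (5.14%) and 1239 (9.58%). Without the fold condition, 1951 (15.1%) had every monkey above every mouse and 4043 (31.2%) every mouse above every monkey. Genes called higher in monkey made up 34.5% of the calls on this scale. With median-of-ratios size factors they made up 53.2%, with 1268 genes higher in monkey and 1114 higher in mouse, and the median over all genes moved from -0.34 to 0.03. The sign of a value within this shift depends on the scale. Some genes that every cell uses are listed at or near 0 in 1 table, such as the ribosomal protein gene RPS27 at under 0.001 in all 7 mice. A value of 0 is therefore given only as a listing.

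**Figure D1:**
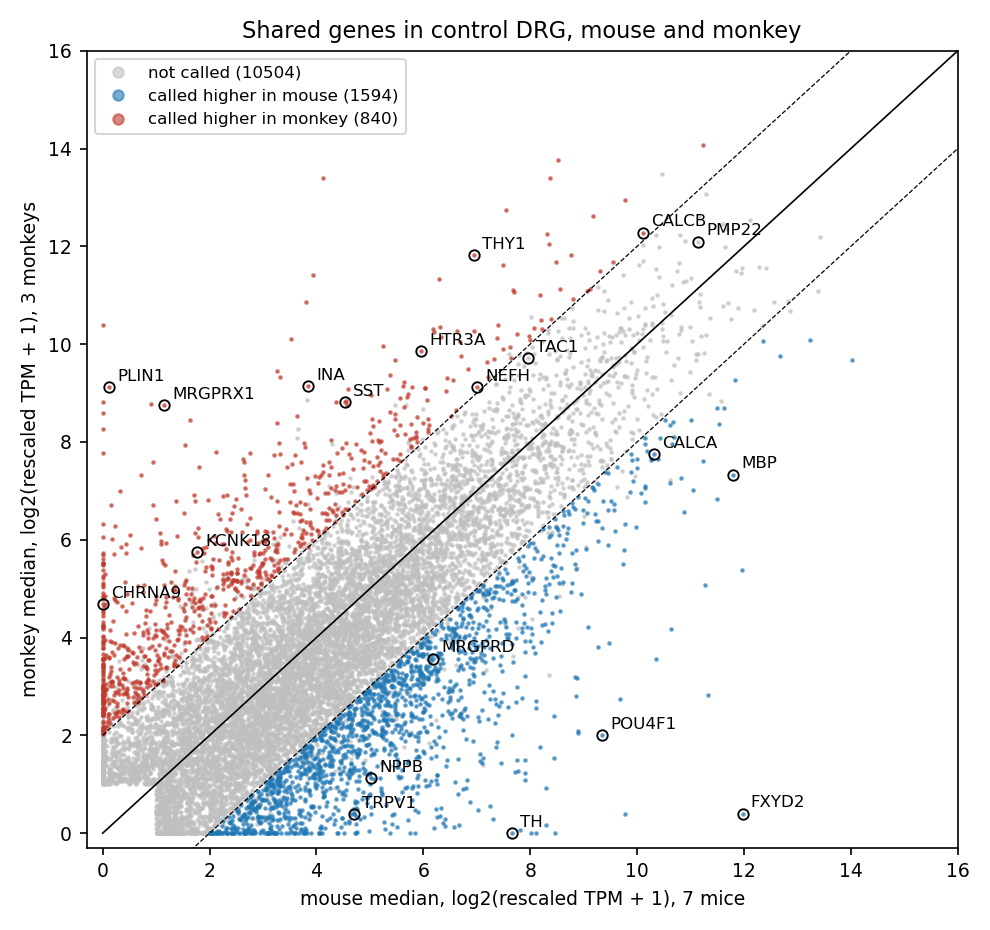
Each point is a shared gene with a median of at least 1 in either species, placed by its median in 7 mice (x axis) and 3 monkeys (y axis), both as log2(rescaled TPM + 1). The solid line marks equal medians and the dashed lines 4-fold differences, with 840 genes called higher in monkey in red and 1594 called higher in mouse in blue.

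Neuronal, satellite glial and Schwann cell markers were detected in both species. All 4 shared neuronal markers (SNAP25, UCHL1, PRPH, AVIL), all 5 satellite glial markers and all 5 myelinating Schwann cell markers were above 0 in every sample. Summed neuronal markers were 3562 to 5881 in mice and 1549, 5559 and 3275 in monkeys 1, 2 and 3. Markers of neighbouring tissue were present as well. Summed spinal cord markers were 405 to 540.01 in batch 1 mice, 52.7 to 149.8 in batch 2 mice and 8.69 to 13.3 in monkeys. Summed skeletal muscle markers were 17.4 to 3417 in mice and 7.94 to 21.2 in monkeys, and summed adipocyte markers were 0.606 to 51.5 and 272 to 789.6. The adipocyte sum is that of ADIPOQ and PLIN1, and PLIN1 alone was 554, 258 and 774 in monkeys 1, 2 and 3. ADIPOQ counts, not scaled for depth, overlapped, at 14 to 1354 in mice and 770, 116 and 72 in monkeys. Monkey 1 stood apart from the other monkeys in having the lowest neuronal markers and the highest red blood cell marker, with ALAS2, the erythroid enzyme of haem synthesis, at 72.5, 0.387 and 3.73 in monkeys 1, 2 and 3. The part of these contents in the differences below was not tested.

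Among the neuropeptides, the gene for the main calcitonin gene-related peptide (CGRP) differed between species. CGRP, a vasodilator released by peptidergic nociceptors, is encoded by CALCA as alpha-CGRP and by CALCB as beta-CGRP. CALCA was 4763, 4516 and 3842 in the batch 1 mice, 1218, 1036, 1026 and 1267 in the batch 2 mice and 74.1, 214 and 332 in the monkeys. CALCB was 840.01, 738 and 771, 1253, 1712, 1099 and 1199 and 4203, 4981 and 8015 in the same order. The groups overlapped for neither gene: every mouse exceeded every monkey for CALCA, and the reverse held for CALCB. The log2 difference was -2.56 (-4.39 against batch 1, -2.39 against batch 2, -3.57 to -3.56 without any 1 of mice 4 to 7) for CALCA and 2.18 (2.69 against batch 1, 2.02 against batch 2) for CALCB. Without any single sample it stayed within -3.57 to -2.21 for CALCA and 2.06 to 2.56 for CALCB. CALCB made up 98.3, 95.9 and 96.0 percent of the summed TPM of both genes in monkeys 1, 2 and 3, against 14.1 to 16.7 percent in batch 1 and 48.6 to 62.3 percent in batch 2. The 2 genes are close paralogs, neighbours on mouse chromosome 7, 114631478 to 114636357 for Calca and chromosome 7, 114718643 to 114723365 for Calcb (GRCm38), so how reads were divided between them is uncertain. Their summed TPM, which also moves with that division where the 2 transcript models differ in length, was 4613 to 5603 in batch 1, 2125 to 2748 in batch 2 and 4277, 5194 and 8346 in the monkeys.

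NPPB, which encodes natriuretic polypeptide B, was higher in mouse, while SST, which encodes the inhibitory peptide somatostatin, was higher in monkey. In mice, both are known markers of the same class of itch neurons. NPPB was 126, 176 and 144 in batch 1 mice, 31.4, 17.6, 18.1 and 23.5 in batch 2 mice and 1.14, 1.19 and 1.85 in the monkeys. The monkey values rest on 11, 8 and 7 counts, against 231 to 2886 in mice, so their precision is low. SST was 108, 86.4 and 109 in batch 1, 18.8, 18.3, 22.2 and 12.04 in batch 2 and 118, 448 and 569 in the monkeys, where monkey 1 was lowest. No monkey value of either gene fell within the mouse range. The log2 difference was -3.89 (-6.05 against batch 1, -3.32 against batch 2, -5.19 to -5.12 without any 1 of mice 4 to 7) for NPPB and 4.28 (2.05 against batch 1, 4.52 against batch 2, 3.02 to 3.07 without any 1 of mice 4 to 7, 3.62 without monkey 3) for SST. SST over NPPB, a ratio within a sample that needs no shared scale, was 0.490 to 1.22 in mice and 103, 378 and 308 in monkeys. By rank among the shared genes, NPPB stood at the 64.8 to 93.7 percentile in mice and at 24.0 to 38.1 in monkeys, and SST at 58.3 to 89.6 and 92.3 to 97.9. In the mouse genome (GRCm38), Nppb lies on chromosome 4, 147985788 to 147987205, and Sst on chromosome 16, 23889573 to 23890958.

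The batches of mice differed in these same peptides. edgeR's quasi-likelihood test with Benjamini-Hochberg adjustment, batch 2 minus batch 1 (4 and 3 mice, adjusted p under 0.05), called 3554 of 16237 genes higher (21.9%) and 3307 lower (20.4%) in batch 2. In edgeR's test the log2 difference was -2.25 (SE 0.25, adjusted p = 5.8e-05) for Nppb and -2.05 (SE 0.24, adjusted p = 0.0001) for Sst. It was -1.50 (SE 0.16, adjusted p = 4.3e-05) for Calca, 1.19 (SE 0.16, adjusted p = 0.00026) for Calcb and -1.13 (SE 0.16, adjusted p = 0.00038) for Tac1 in edgeR's test as well. Of 17 peptide genes tested, 2 were higher and 8 lower in batch 2. For CALCA, CALCB, NPPB and SST the species difference kept its direction against each batch, and the monkey values lay beyond those of both batches. This had to hold once these genes were called, because called groups do not overlap. It is therefore no separate test of whether the batch difference affects the calls.

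TAC1, which encodes substance P, was not called: it was 671, 550.2 and 497 in batch 1, 178, 213, 175 and 246 in batch 2 and 841, 673 and 1259 in the monkeys. All monkeys exceeded all mice, with monkey 2 and mouse 1 close together. TAC1 over CALCB was 0.124 to 0.205 in batch 2 mice and 0.200, 0.135 and 0.157 in the monkeys, ranges that overlap, and 0.644 to 0.799 in batch 1 mice.

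Of 16 measured peptide genes of 18 listed, 4 (25%) were called higher in monkey and 5 (31.25%) higher in mouse, with a median of -1.09. The other mouse-high genes were NTS (neurotensin), NPY (neuropeptide Y) and CARTPT (the CART prepropeptide). CARTPT was 15.3 to 109 (median 25.7) in mice and 1.19, 0.242 and 0.426 in monkeys (counts of 14, 2 and 2), log2 difference -4.23 (-5.37 against batch 1, -3.99 against batch 2). NTS was 8.99 to 60.7 (median 12.7) in mice, 4.93 in monkey 1 and listed at 0 in monkeys 2 and 3, log2 difference -3.77 (-5.83 against batch 1, -3.59 against batch 2, -5.06 without any 1 of mice 4 to 7, -1.98 without monkey 2, -1.98 without monkey 3), so its call was lost without monkey 2 or 3. NPY was 4.12 to 25.1 (median 14.8) in mice and 0.909, 0 and 1.59 in monkeys, and was not called against batch 2 alone.

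The other monkey-high peptide genes encode neuromedin U and prepronociceptin, the precursor of an opioid-like peptide. NMU was 0 to 5.16 (median 1.93) in mice and 29.4, 14.6 and 15.7 in monkeys, log2 difference 2.51 (2.38 against batch 1, 2.92 against batch 2), and PNOC was 0.407 to 1.42 (median 0.972) and 33.4, 8.39 and 18.4, log2 difference 3.30 (3.26 against batch 1, 3.50 against batch 2). NMU was not called when counts scaled to the library total (CPM), which are not divided by length, replaced TPM (1.82). In every monkey both genes exceeded every mouse.

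The remaining peptide genes were not called. Every mouse exceeded every monkey for galanin (GAL), neuromedin B (NMB) and PACAP (ADCYAP1), without a call. GAL was 94.2 to 161 in mice and 12.9 to 42.7 in monkeys, NMB 172 to 503 and 61.5 to 126, and ADCYAP1 17.2 to 30.6 and 2.001 to 10.1. Galanin is an inhibitory modulator, and PACAP a peptide linked to injury. The opioid precursors PENK (11.8 to 67.7 and 1.23 to 20.4) and PDYN (0.459 to 2.51 and 0.05003 to 0.586) overlapped. UCN, urocortin, was 0 to 0.879 and 1.75 to 6.40, without a call. VIP and GRP, the gene of gastrin-releasing peptide, fell below the minimum of 1.

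**Figure D2:**
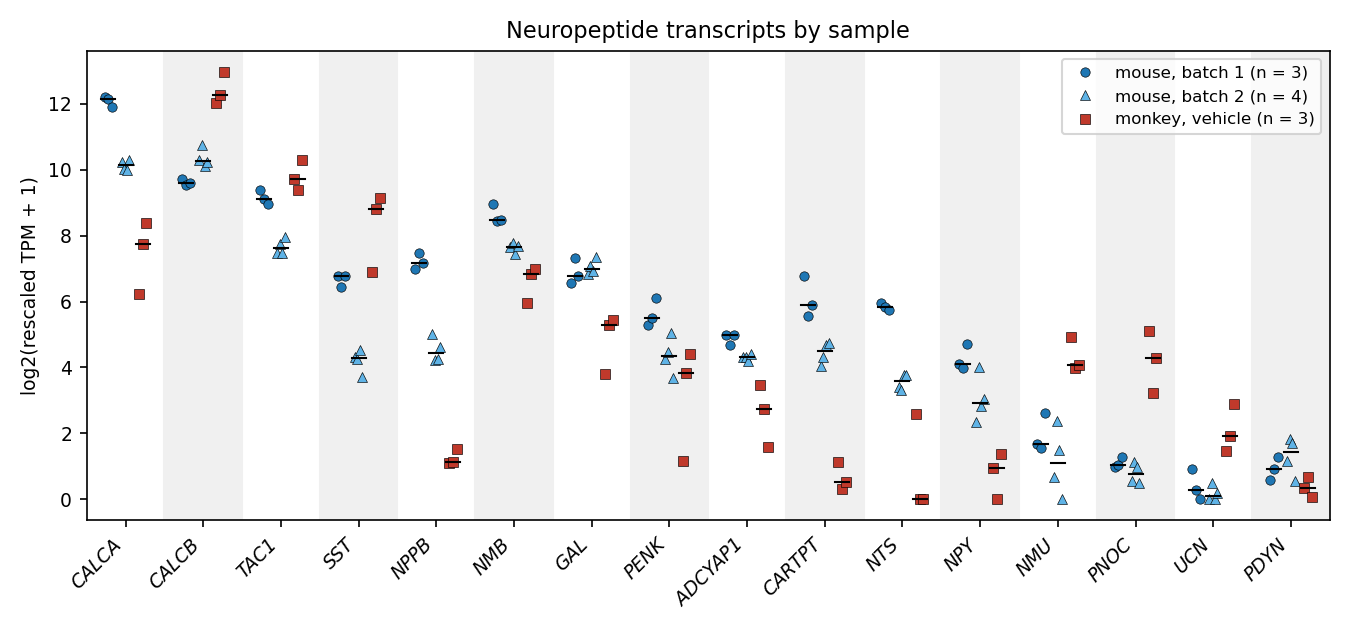
Points are single samples, 3 mice of batch 1, 4 mice of batch 2 and 3 vehicle monkeys, with the level of 16 neuropeptide genes on the y axis as log2(rescaled TPM + 1) and black bars at group medians. CALCA, NPPB, CARTPT, NTS and NPY lie higher in mice, CALCB, SST, NMU and PNOC lie higher in monkeys, and the mouse batches stand apart for CALCA, TAC1, SST and NPPB.

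The receptors and processing enzymes of the natriuretic pathway differed less than NPPB. Of 8 measured members of 10 listed, none was called higher in monkey and 2 (25%), NPPB and FURIN, were called higher in mouse. FURIN, a protease that can cut natriuretic peptide precursors, was 25.6 to 64.8 (median 35.6) in mice and 9.65, 7.07 and 3.03 in monkeys, log2 difference -2.18 (-2.71 against batch 1, -1.98 against batch 2). Its call was lost against batch 2, with the TPM as deposited, with size factors and without monkey 3, at -1.94 to -1.98. NPR1, the guanylyl cyclase receptor of natriuretic polypeptides A and B, was 2.04 to 5.92 in mice and 10.3, 3.08 and 0.911 in monkeys. NPR2, the receptor of C-type natriuretic peptide, was 18.3 to 52.9 and 18.8, 18.7 and 1.48, and the clearance receptor NPR3 was 0.353 to 3.22 and 2.21, 0.254 and 0. Mouse and monkey ranges overlapped for all 3 receptors. Overlap was also seen for NPPC, the C-type peptide (0.499 to 5.99 and 2.39 to 16.9), for the convertase PCSK6 (1.41 to 6.55 and 0.777 to 5.77) and for the peptide-degrading enzyme MME (2.53 to 5.85 and 3.33 to 6.15). The median of the pathway was -0.40 and changed sign with the scale, to 0.24 with size factors. NPPA and the convertase gene CORIN fell below the minimum.

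Among 29 measured itch-associated receptors, 2 (6.90%) were called higher in monkey and 4 (13.8%) higher in mouse. These shares are near the 6.49% and 12.3% of all measured genes. MRGPRX1, a Mas-related receptor of pruritogens, was 1.21, 1.46 and 1.29 in batch 1 mice, 1.68, 0.739, 0.144 and 0.238 in batch 2 mice and 95.5, 430.1 and 714 in monkeys, and the groups lay far apart. Its log2 difference was 7.61 (7.56 against batch 1, 8.18 against batch 2, 6.90 without monkey 3). MRGPRD, the Mas-related receptor of non-peptidergic nociceptors, went the other way, at 114, 71.6 and 96.9, 45.4, 73.6, 43.6 and 50.1 and 0.846, 10.9 and 13.6, log2 difference -2.61 (-3.05 against batch 1, -2.04 against batch 2, -3.41 without monkey 3). The monkey MRGPRD values rest on 15, 136 and 98 counts. MRGPRX1 over MRGPRD was 0.00330 to 0.0370 in mice and 113, 39.6 and 52.5 in monkeys. The family expanded differently in rodents and primates, and genes were matched by symbol only. Its unmatched members were also expressed, on the same scale. In mice these included Mrgprx3-ps (23.8 to 61.7), Mrgpra3 (18.9 to 58.1), Mrgpra2b (25.5 to 48.2) and Mrgprb5 (11.8 to 27.9). In monkeys they were MRGPRX3 (7.32 to 15.6) and MRGPRX3-LIKE (5.49 to 22.9). Reads of such similar genes may be divided between copies, so single values of the family are uncertain.

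HTR3A, the serotonin-gated cation channel, was also higher in monkey, at 36.8 to 78.6 (median 61.3) in mice and 128, 948 and 926 in monkeys. Its log2 difference was 3.90 (4.30 against batch 1, 3.68 against batch 2, 3.08 without monkey 2, 3.11 without monkey 3), and all 3 monkeys lay above all 7 mice. The prostaglandin D2 receptor PTGDR, at 20.5 to 34.7 (median 28.4) in mice and 2.75, 5.05 and 2.46 in monkeys, was higher in mouse, log2 difference -2.97 (-3.11 against batch 1, -2.87 against batch 2). CRLF2, the receptor chain of the cytokine TSLP, was 3.64 to 10.6 in mice and 0.0459, 0.0649 and 0 in monkeys, at 1, 1 and 0 counts. LPAR5, a lysophosphatidic acid receptor, was 3.07 to 10.7 and 0.402, 0.602 and 0.121, and lost its call against batch 2, with size factors, with the TPM as deposited and with CPM. PTGDR was not called with CPM (-1.87). The receptor of the itch cytokine interleukin-31 showed no call. Its chains, singled out after their values were seen, were 4.42 to 9.73 in mice and 5.36, 9.73 and 2.21 in monkeys for IL31RA, and 4.82 to 11.7 and 6.02, 22.3 and 23.5 for OSMR. The list median was -0.37, beside -0.34 over all genes, and it changed sign with the scale, to 0.24 with size factors. Il4ra, an interleukin-4 receptor chain, had no matching symbol and was 4.80 to 12.2 in mice.

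Voltage-gated sodium channels carry the action potential, and SCN9A, SCN10A and SCN11A encode the pore subunits typical of nociceptors. Of 10 measured subunits of 13 listed, 2 (20%) were called higher in monkey and none in mouse, and both called genes encode auxiliary beta subunits. SCN2B was 0.833 to 2.12 (median 1.39) in mice and 5.35, 12.1 and 16.9 in monkeys, log2 difference 2.46 (2.38 against batch 1, 2.54 against batch 2). SCN3B was 14.3 to 24.9 (median 17.8) and 44.7, 83.6 and 274, log2 difference 2.17 (1.94 against batch 1, 2.21 against batch 2, 3.26 without monkey 1, 3.10 without monkey 2). SCN3B was not called against batch 1 or without monkey 3 (1.80). The nociceptor pore subunits were not called. SCN9A was 11.4 to 39.99 in mice and 10.3, 11.05 and 6.17 in monkeys, with every monkey below every mouse, while SCN10A (19.1 to 79.8 and 5.29, 37.4 and 38.9) and SCN11A (26.8 to 65.2 and 6.54, 40.7 and 23.3) overlapped. Monkey 1 was the lowest of all 10 samples for SCN10A and SCN11A. The remaining pore subunits SCN2A (1.15 to 2.003 and 1.02 to 9.09), SCN8A (3.59 to 14.99 and 2.62 to 18.6) and the glial SCN7A (14.1 to 57.6 and 3.66 to 41.0) overlapped as well. The beta subunit gene SCN4B overlapped too (16.8 to 56.5 and 16.1 to 95.5). The median of the subunits was 0.48 (-0.81 against batch 1 and 0.73 against batch 2), and its sign depended on the setting. Scn1a had no matching symbol and was 5.82 to 25.5 in mice.

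TRP channels sense heat, cold and irritants. Of 11 measured, none was called higher in monkey and 3 (27.3%) were called higher in mouse, with a median of -1.39 (-1.91 against batch 1 and -1.05 against batch 2). TRPV1, the receptor of capsaicin and noxious heat, was 25.7, 17.4 and 22.0 in batch 1 mice, 15.4, 35.1, 24.99 and 26.8 in batch 2 mice and 0.0489, 0.310 and 1.59 in monkeys. The log2 difference was -4.31 (-4.13 against batch 1, -4.36 against batch 2), and -4.46 to -3.74 with single samples left out, and every monkey lay below every mouse. Those monkey values rest on 2, 9 and 27 counts, against 974 to 2365 in mice. Mouse Trpv1 lies on chromosome 11, 73234292 to 73261242 (GRCm38). TRPM7, a channel fused to a kinase, was 7.79 to 23.6 (median 13.8) in mice and 3.08, 1.69 and 0.451 in monkeys, log2 difference -2.46 (-2.62 against batch 1, -2.17 against batch 2). TRPC6 was 2.01 to 7.39 (median 5.95) and 0.510, 0.628 and 0.382, and lost its call against batch 2, with the TPM as deposited and with size factors. Trpa1, the irritant receptor, had no matching symbol and was 8.005 to 23.4 in mice.

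Of 26 measured mechanically gated, HCN, acid-sensing and potassium channels of 30 listed, 1 (3.85%) was called higher in monkey and 8 (30.8%) higher in mouse. The monkey-high gene was KCNK18, the background potassium channel TRESK, at 2.70, 1.88 and 3.28 in batch 1 mice, 1.57, 2.77, 1.11 and 2.41 in batch 2 mice and 31.5, 52.8 and 101 in monkeys. Its log2 difference was 3.98 (3.86 against batch 1, 4.17 against batch 2), and no setting tried ended the call. KCNK1, another 2-pore channel gene, was higher in mouse at 27.5 to 98.8 (median 55.9), against 7.87, 5.98 and 3.74 in monkeys, log2 difference -3.03 (-3.08 against batch 1, -2.94 against batch 2). KCNK18 over KCNK1 was 0.0237 to 0.0683 in mice and 4.003, 8.84 and 27.0 in monkeys. Further mouse-high genes were TMEM63B, a mechanosensitive channel (23.1 to 61.9 in mice and 0.166 to 2.02 in monkeys), and ASIC2, an acid-sensing channel subunit (9.05 to 38.3 and 0.349 to 1.46). Their log2 differences were -4.19 (-5.06 against batch 1, -3.89 against batch 2) and -3.67 (-4.48 against batch 1, -3.35 against batch 2). PIEZO2, the touch channel, singled out after its values were seen, was 19.6 to 52.9 and 18.3, 30.1 and 3.05, with overlap.

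Of 13 purine receptors, 1 (7.69%) was called higher in monkey and 2 (15.4%) higher in mouse, shares near the 6.49% and 12.3% of all measured genes. The monkey-high gene was P2RX5, an ATP-gated channel subunit, at 1.97 to 4.33 (median 2.98) in mice and 12.2, 42.8 and 19.8 in monkeys, log2 difference 2.38 (2.003 against batch 1, 2.41 against batch 2, 3.02 without monkey 1). With CPM it was 1.92 and not called. Called higher in mouse were P2RY1, a nucleotide receptor (11.02 to 35.4 and 0.963 to 1.43, log2 difference -3.19, with -4.12 against batch 1 and -2.87 against batch 2), and ADORA1, the adenosine A1 receptor (19.8 to 41.7 and 0.668 to 2.62, log2 difference -3.15, with -3.73 against batch 1 and -3.09 against batch 2). Among 11 measured cholinergic receptor subunits, 3 (27.3%) were called higher in monkey and 1 (9.09%) in mouse, and all 4 encode nicotinic alpha subunits. CHRNA9 was listed at 0 in all 7 mice, with 0 counts, and was 17.8, 24.6 and 30.3 in monkeys at 624, 627 and 442 counts. CHRNA3 was 5.43 to 10.1 (median 6.57) in mice and 39.97, 63.2 and 12.01 in monkeys, log2 difference 2.44 (2.02 against batch 1, 2.51 against batch 2, 1.83 without monkey 2), and was not called without monkey 2. CHRNA5 was 0 to 0.408 and 3.07, 7.53 and 38.7, log2 difference 2.91 (2.77 against batch 1, 3.00 against batch 2, 4.41 without monkey 1, 4.27 without monkey 2). CHRNA6 was the mouse-high subunit, at 14.6 to 27.8 (median 23.4) in mice and 0, 0.691 and 0.181 in monkeys, with 0, 17 and 2 counts. It made up 38.2 to 57.2 percent of the summed nicotinic TPM of each mouse, while CHRNA3 and CHRNA9 made up 58.5, 56.2 and 13.9 percent and 26.0, 21.9 and 35.1 percent in monkeys 1, 2 and 3. CHRNA5 made up 4.49, 6.70 and 44.8 percent in the same order and was the largest in monkey 3.

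**Figure D3:**
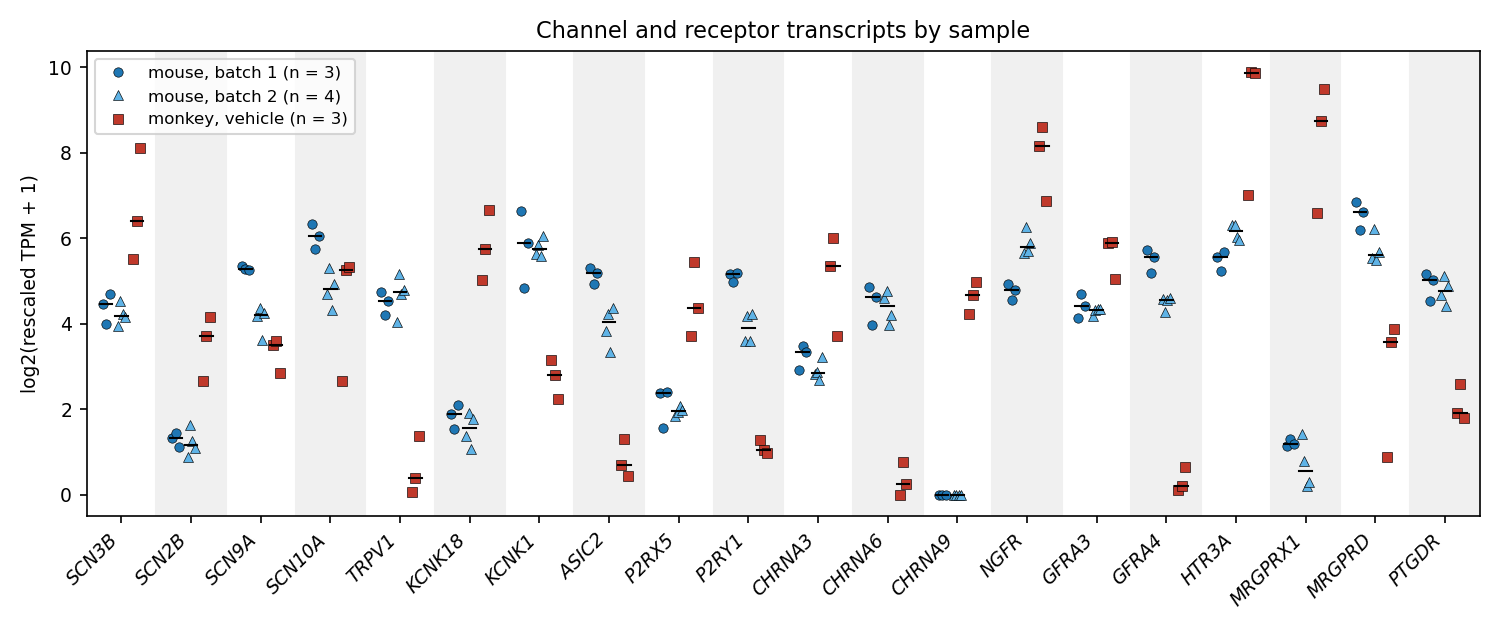
Points are single samples and bars group medians of 20 channel and receptor genes, with log2(rescaled TPM + 1) on the y axis, for 3 mice of batch 1, 4 mice of batch 2 and 3 vehicle monkeys. TRPV1, KCNK1, ASIC2, P2RY1, CHRNA6, GFRA4, MRGPRD and PTGDR lie higher in mice, and KCNK18, CHRNA9, NGFR, HTR3A and MRGPRX1 lie higher in monkeys.

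Neurotrophin and GDNF family receptors keep sensory neurons alive and mark their classes. Of 9 measured of 10 listed, NGFR (11.1%) was called higher in monkey and GFRA4 (11.1%) higher in mouse, against 6.49% and 12.3% of all measured genes. NGFR, the low-affinity p75 neurotrophin receptor, also made by Schwann cells, was 22.6 to 75.8 (median 49.7) in mice and 284, 387 and 117 in monkeys, log2 difference 2.49 (3.36 against batch 1, 2.36 against batch 2), and 1.99 without monkey 2, which ended the call. GFRA4, a co-receptor of the GDNF family, was 18.4 to 51.6 (median 23.3) and 0.0763, 0.161 and 0.556, log2 difference -4.39 (-5.35 against batch 1, -4.35 against batch 2), with 2, 3 and 6 counts in monkeys. The high-affinity neurotrophin receptor genes NTRK2 and NTRK3 were not called. NTRK2 was 9.11 to 22.8 in mice and 28.3, 38.8 and 10.8 in monkeys, and NTRK3 20.1 to 33.4 and 17.1, 15.4 and 2.45. Every monkey lay below every mouse for NTRK3. Nor were the GDNF family signalling receptor RET (23.4 to 84.3 and 11.3 to 67.1) and its co-receptors GFRA1 (22.8 to 39.8 and 9.40 to 43.0) and GFRA2 (18.4 to 47.5 and 10.7 to 21.3) called, all with overlap. GFRA3, the artemin co-receptor, was 16.4 to 25.1 in mice and 58.7, 58.9 and 31.9 in monkeys, higher in all 3 monkeys without a call. GFRA3 over GFRA2 was 0.346 to 1.04 in mice and 5.48, 2.77 and 2.27 in monkeys.

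Of 18 measured inhibitory receptors, none was called higher in monkey and 3 (16.7%) were called higher in mouse, against 6.49% and 12.3% of all measured genes. CNR1, the cannabinoid receptor, was 4.91 to 5.82 in batch 1, 17.1 to 41.9 in batch 2 and 0.492, 0.853 and 1.70 in monkeys. Its log2 difference was -3.28 (-1.74 against batch 1, -3.81 against batch 2), which was not called against batch 1. The batches themselves differed in Cnr1 by 2.78 (SE 0.28, adjusted p = 3.4e-05) in edgeR's test with Benjamini-Hochberg adjustment. NPY2R, a neuropeptide Y receptor, was 3.002 to 12.1 and 0.0486 to 0.434, log2 difference -2.53 (-2.96 against batch 1, -2.26 against batch 2).

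Within-sample ratios need no scale shared by the tables, although a length or mapping difference between the annotations still enters them. Of 14 gene pairs, all chosen with earlier results known, 11 had every monkey ratio above every mouse ratio. Several pairs, such as SST over NPPB and CALCB over CALCA, set a gene called higher in monkey over one called higher in mouse. Their ratios could not overlap once both calls were made, so this count adds no separate support to the calls. The ranges of TAC1 over CALCB, SCN10A over SCN9A and OSMR over IL31RA overlapped. SCN10A over SCN9A was 1.40 to 1.996 in mice and 0.513, 3.38 and 6.31 in monkeys 1, 2 and 3, so monkey 1 was below the mice and the other two above.

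**Figure D4:**
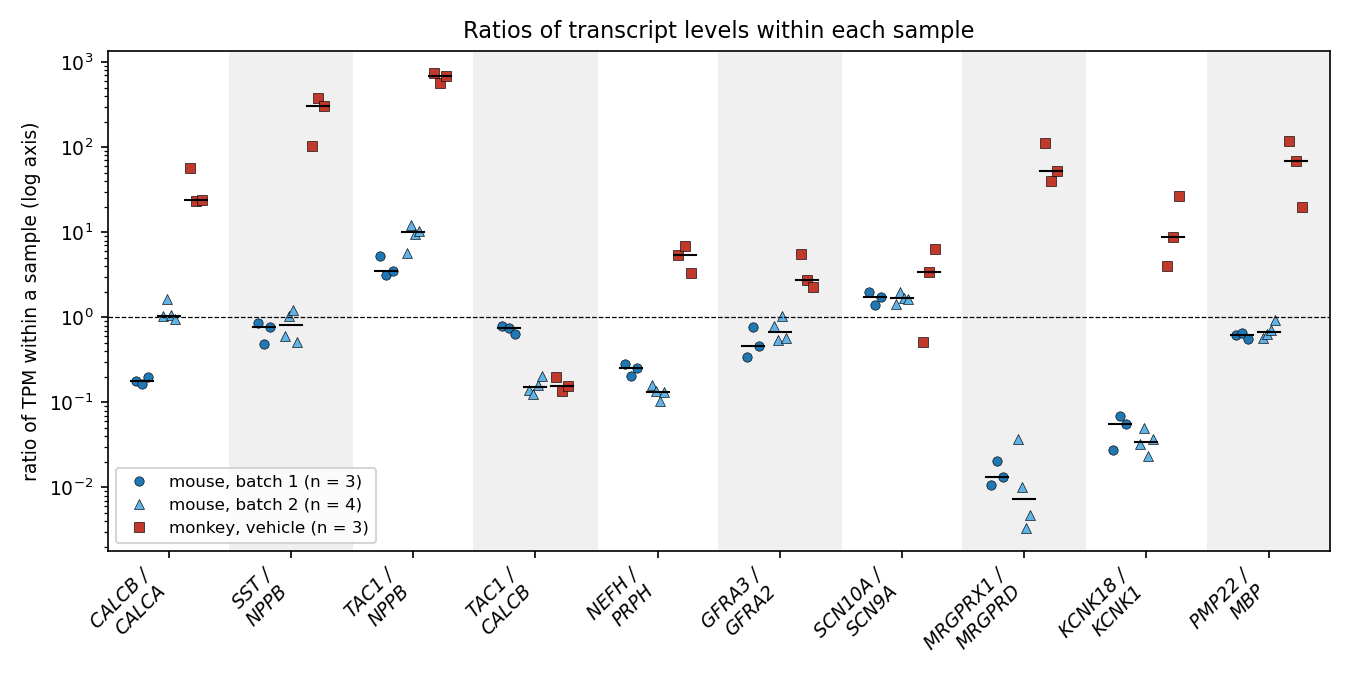
Each point is the ratio of the TPM of 2 genes within a single sample, on a log axis, for 3 mice of batch 1, 4 mice of batch 2 and 3 vehicle monkeys, with bars at group medians and a dashed line at 1. CALCB over CALCA is 0.163 to 1.65 in mice and 56.7, 23.3 and 24.2 in monkeys 1, 2 and 3.

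Of 19 measured genes of large-diameter neurons, 2 (10.5%) were called higher in monkey and 3 (15.8%) higher in mouse, against 6.49% and 12.3% of all measured genes. THY1, a surface glycoprotein of neurons, was 89.7 to 154 (median 122) in mice and 391.7, 3635 and 3872 in monkeys, log2 difference 4.89 (5.14 against batch 1, 4.76 against batch 2, 4.12 without monkey 2, 4.03 without monkey 3). NEFH, the heavy neurofilament chain, was 213 to 389 in batch 1, 66.3 to 127 in batch 2 and 511, 2858 and 558 in monkeys, log2 difference 2.13 (0.88 against batch 1, 2.21 against batch 2, 3.74 without monkey 1, 3.72 without monkey 3). NEFH was not called against batch 1, with CPM or without any 1 of mice 4 to 7 (1.71 to 1.72). Higher in mouse were CALB1, a calcium-binding protein (20.3 to 51.3 and 1.20 to 2.36, log2 difference -3.16, with -3.53 against batch 1 and -2.97 against batch 2), NECAB2 (6.38 to 19.9 and 0.0472 to 2.23, log2 difference -2.88, with -3.29 against batch 1, -2.87 against batch 2 and -2.25 without monkey 1) and CNTNAP2, a protein of the node region (14.4 to 50.2 and 2.42 to 11.98, log2 difference -2.497, with -2.61 against batch 1, -2.21 against batch 2, -1.74 without monkey 1 and -1.91 without monkey 3). CNTNAP2 lost its call with size factors, with CPM and without monkey 1 or 3.

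Among 24 measured pan-neuronal genes, 2 (8.33%) were called higher in monkey and 4 (16.7%) higher in mouse, with a median of -0.43. Over all measured genes the shares were 6.49% and 12.3%. Intermediate filament genes were among the calls in each direction. INA, alpha-internexin, was 8.54 to 47.2 (median 13.4) in mice and 565, 624 and 159.6 in monkeys, log2 difference 5.30 (4.30 against batch 1, 5.39 against batch 2, 4.66 without monkey 2), while PRPH, peripherin, was 635 to 1358 (median 947) and 93.3, 419.8 and 166, log2 difference -2.503 (-2.85 against batch 1, -2.28 against batch 2, -1.69 without monkey 1, -1.88 without monkey 3). PRPH lost its call with size factors, with CPM and without monkey 1 or 3. NEFH over PRPH was 0.104 to 0.286 in mice and 5.48, 6.81 and 3.35 in monkeys. KIF5A, a kinesin motor of axons, was higher in monkey (56.5 to 109 and 249 to 654, log2 difference 2.70, with 2.70 against batch 1 and 2.67 against batch 2). STMN3, a stathmin that binds tubulin (1900.1 to 2703 and 39.8 to 251, log2 difference -4.02, with -4.06 against batch 1, -3.99 against batch 2 and -4.63 without monkey 2), VAMP2, a synaptic vesicle SNARE (141 to 365 and 15.7 to 24.3, log2 difference -3.39, with -3.87 against batch 1 and -2.95 against batch 2), and SLC17A6, the vesicular glutamate transporter VGLUT2 (42.7 to 83.6 and 3.53 to 11.9, log2 difference -2.33, with -2.62 against batch 1 and -2.24 against batch 2), were higher in mouse. SNCG, gamma-synuclein, among the 10 most abundant shared genes of mice at 5285 to 9883, was 396, 1647 and 5496 in monkeys and was not called. Tubb3 had no matching symbol.

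Of 20 measured transcription factors of sensory neurons, none was called higher in monkey and 5 (25%) were called higher in mouse, with a median of -0.69. POU4F1 (BRN3A), which specifies sensory neurons, was 63.5, 35.2 and 56.0 in batch 1 mice, 759, 1086, 646 and 787 in batch 2 mice and 0.219, 8.05 and 2.99 in monkeys. Its log2 difference was -7.34 (-3.83 against batch 1, -7.60 against batch 2, -6.69 to -6.48 without any 1 of mice 4 to 7, -6.63 without monkey 1, -7.96 without monkey 2), so the size depended on the batch. In edgeR's quasi-likelihood test with Benjamini-Hochberg adjustment the batches differed by 3.49 (SE 0.22, adjusted p = 1.1e-06). TLX2 and TLX3 are homeobox factors of sensory neurons, and both were higher in every mouse than in every monkey. TLX2 was 14.3 to 110.1 in mice and 0.510, 12.8 and 3.40 in monkeys, log2 difference -2.49 (-4.56 against batch 1, -2.21 against batch 2, -3.49 to -3.44 without any 1 of mice 4 to 7, -1.44 without monkey 1, -1.69 without monkey 3), and was not called with size factors or without monkey 1 or 3. TLX3 was 7.39 to 38.6 and 0.814, 1.56 and 2.05, log2 difference -2.33 (-3.75 against batch 1, -2.08 against batch 2). CUX2, named here after its values were seen, was 2.08 to 7.87 and 0.309, 0.882 and 0.115, log2 difference -2.25, and -1.76 against batch 1, which is below the fold required. MAF, a factor of touch neurons, was 21.6 to 40.5 in batch 1, 82.4 to 99.1 in batch 2 and 19.2, 6.91 and 2.62 in monkeys, log2 difference -3.40 (-2.04 against batch 1, -3.55 against batch 2, -2.81 without monkey 2, -2.57 without monkey 3), and its groups overlapped with size factors and with the TPM as deposited. TH, tyrosine hydroxylase, the catecholamine enzyme that marks mouse C-fibre touch neurons, was 95.5, 60.6 and 119 in batch 1, 201, 316, 201 and 223 in batch 2 and 0, 0.104 and 0 in monkeys, at 0, 2 and 0 counts. Sympathetic neurons also make TH, and DBH, the noradrenaline enzyme that marks them, was at most 0.378 in any mouse and listed at 0 in every monkey. Mouse Th lies on chromosome 7, 142892752 to 142931128 (GRCm38). None of 12 measured HOX genes was called in either direction against all mice, and 3 were called in each direction against batch 1 alone.

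Myelin genes were unevenly placed. Of 15 measured genes of myelinating Schwann cells, none was called higher in monkey and 6 (40%) were called higher in mouse, with a median of -1.92 (-2.20 against batch 1 and -1.90 against batch 2). MBP, myelin basic protein, was 3249, 3856 and 3705 in batch 1, 3453, 3537, 4678 and 3084 in batch 2 and 36.9, 215 and 159.97 in monkeys, log2 difference -4.46 (-4.53 against batch 1, -4.44 against batch 2, -5.15 without monkey 2). MAG, the adhesion protein next to the axon, was 40.2 to 90.9 in mice and 2.39 to 4.003 in monkeys, and GJB1, the gap junction protein connexin 32, 17.5 to 69.2 and 1.78 to 3.13. Their log2 differences were -3.70 (-3.74 against batch 1, -3.40 against batch 2) and -3.63 (-2.57 against batch 1, -4.16 against batch 2). NCMAP, a non-compact myelin protein, was 86.9 to 266 in mice and 6.64 to 34.7 in monkeys, log2 difference -3.72 (-3.01 against batch 1, -4.09 against batch 2, -2.73 without monkey 1, -2.87 without monkey 3). PMP22, a protein of compact myelin singled out after its values were seen, was 1958 to 3302 in mice and 4385, 14611 and 3172 in monkeys, with overlap and without a call. PMP22 over MBP was 0.549 to 0.929 in mice and 119, 67.9 and 19.8 in monkeys, below 1 in every mouse and above 1 in every monkey. MBP is also made in spinal cord, whose marker MOBP was 387 to 484 in batch 1, 39.5 to 115 in batch 2 and 4.39 to 9.90 in monkeys, log2 difference -3.81 (-5.78 against batch 1, -2.92 against batch 2, -4.93 to -4.80 without any 1 of mice 4 to 7). The part of spinal cord RNA in MBP was not tested.

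Of 15 measured satellite glial genes, 1 (6.67%) was called higher in monkey and 3 (20%) higher in mouse, against 6.49% and 12.3% of all measured genes. ENTPD2, an ectonucleotidase that breaks down ATP, was 36.2 to 68.2 in batch 1, 133 to 164 in batch 2 and 1.77, 2.64 and 1.72 in monkeys, log2 difference -5.59 (-4.34 against batch 1, -5.76 against batch 2). GJA1, connexin 43, which couples satellite glia, was 41.8 to 90.7 and 10.4, 5.80 and 2.36, log2 difference -3.20 (-2.67 against batch 1, -3.26 against batch 2). APOE, a lipid carrier, was 4380.4 to 5736 and 1019, 1220.2 and 1064, log2 difference -2.31 (-2.38 against batch 1, -2.26 against batch 2), not called with size factors. SCRG1 was 0.275 to 36.2 (median 3.71) in mice and 59.0, 37.4 and 64.6 in monkeys, log2 difference 3.67 (2.22 against batch 1, 4.41 against batch 2), with overlap in CPM. Of 9 measured genes of non-myelinating and repair Schwann cells, 3 (33.3%) were called higher in monkey and none in mouse, with a median of 1.38. Beside NGFR these were CADM3, a cell adhesion molecule (11.8 to 22.4 and 80.1, 460.3 and 184, log2 difference 3.41, with 3.82 against batch 1, 3.17 against batch 2 and 4.21 without monkey 1), and ADAM23 (24.1 to 51.4 and 353, 341 and 531, log2 difference 3.43, with 2.92 against batch 1 and 3.51 against batch 2). Another 2 of the 9 went the other way, with every mouse above every monkey, without a call.

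Immune genes stood higher in the monkeys in part. Of 13 measured macrophage genes, 3 (23.1%) were called higher in monkey and none in mouse, with a median of 1.02: AIF1 (13.0 to 37.8 in mice and 288, 302 and 175 in monkeys), the endotoxin co-receptor CD14 (5.98 to 12.6 and 33.0, 103 and 107) and the scavenger receptor CD163 (2.43 to 4.61 and 20.9, 19.0 and 8.30). Summed macrophage markers were 41.3 to 80.3 in mice and 244 to 385 in monkeys. Most of the monkey sums is AIF1, at 288, 302 and 175, so they mainly repeat its call. The log2 differences of AIF1, CD14 and CD163 were 3.18 (3.08 against batch 1, 3.33 against batch 2), 3.09 (3.00 against batch 1, 3.10 against batch 2, 2.499 without monkey 3) and 2.21 (2.21 against batch 1, 2.32 against batch 2), and CD163 was not called with CPM or without monkey 1 or 2 (1.77 and 1.86).

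Antigen presentation was split, 4 (40%) of 10 measured genes higher in monkey and 3 (30%) higher in mouse. CD74, the invariant chain of MHC class II, was 252 to 426 in mice and 2614, 7546 and 3298 in monkeys, log2 difference 3.20 (3.38 against batch 1, 3.12 against batch 2, 3.92 without monkey 1, 3.83 without monkey 3). B2M, the light chain of MHC class I, was 1153 to 1695 in batch 1, 487 to 634 in batch 2 and 2992, 2667 and 2901 in monkeys, and was not called against batch 1 (0.82) or without any 1 of mice 4 to 7 (1.70 to 1.71). PSMB9, an immunoproteasome subunit, and NLRC5, an activator of MHC class I genes, were the other monkey-high genes, with log2 differences of 2.11 (2.07 against batch 1, 2.18 against batch 2) and 2.32 (2.32 against batch 1, 2.33 against batch 2). PSMB9 was not called with CPM or without monkey 2 (1.91). The peptide transporter gene TAP2 (19.2 to 29.8 and 1.30 to 4.74, log2 difference -3.46, with -3.44 against batch 1, -3.55 against batch 2, -2.71 without monkey 1 and -2.74 without monkey 3), the loading factor TAPBP (68.3 to 104 and 1.56 to 8.53, log2 difference -3.97, with -4.03 against batch 1 and -3.87 against batch 2) and the protease CTSS (51.4 to 72.0 and 8.99 to 20.8, log2 difference -2.36, with -2.56 against batch 1 and -2.27 against batch 2) were higher in mouse. CTSS was not called with size factors or without monkey 2 or 3 (-1.996 and -1.89). JCHAIN, the joining chain of secreted antibodies, was 2.08 to 9.37 in mice and 241, 117 and 34.1 in monkeys, and CD3D, a T-cell receptor chain, 0.598 to 2.52 and 41.1, 13.2 and 26.3. JCHAIN and CD3D were called higher in monkey, log2 differences 4.63 (4.64 against batch 1, 4.59 against batch 2, 4.00 without monkey 1, 5.23 without monkey 3) and 3.37 (3.30 against batch 1, 3.80 against batch 2). The lymphocyte genes CD79A and CD3E, singled out after their values were seen, lay the other way. Every mouse was above every monkey for the B-cell receptor gene CD79A (3.02 to 18.0 and 0.408 to 1.17, not called) and for CD3E, another T-cell receptor chain, which is below the minimum level (0.117 to 1.27 and 0 to 0.0618, with at most 1 count in a monkey).

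Connective tissue genes were higher in mouse where called, 33.3% of those measured. Of 12 fibroblast and matrix genes, none was called higher in monkey and 4 were called higher in mouse: the proteoglycans DCN (2445 to 4839.9 in mice and 2421, 617 and 279 in monkeys) and LUM (177 to 417 and 84.9, 53.8 and 29.9), the growth factor receptor PDGFRA (5.74 to 11.4 and 2.22, 0.487 and 0.108) and periostin, POSTN (7.49 to 26.2 and 0.943, 0.883 and 0.0520). Monkey 1 was the highest monkey for all 4. The log2 differences were -2.55 (-2.76 against batch 1, -2.35 against batch 2, -1.42 without monkey 2, -1.25 without monkey 3), -2.35 (-2.89 against batch 1, -2.27 against batch 2), -2.69 (-2.90 against batch 1, -2.30 against batch 2, -2.03 without monkey 3) and -2.77 (-3.81 against batch 1, -2.27 against batch 2). DCN and LUM lost their calls without monkey 3 (-1.99 for LUM), and DCN also without monkey 2, under each of the other rescalings and in CPM. The list was not uniform, as 1 member had every monkey above every mouse without a call. Summed fibroblast markers overlapped, at 2873 to 5812 in mice and 3270, 1030 and 590 in monkeys 1, 2 and 3.

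Fat and muscle genes went opposite ways where called. Of 7 measured adipocyte genes, 3 (42.9%) were called higher in monkey. PLIN1, the coat protein of lipid droplets, was 0 to 4.36 in mice, where mouse 3 was highest, and 554, 258 and 774 in monkeys, log2 difference 9.0002 (8.81 against batch 1, 9.09 against batch 2). LEP, leptin, was 0 to 0.127 and 59.1, 28.0 and 25.6, log2 difference 4.82 (4.86 against batch 1, 4.82 against batch 2, 5.43 without monkey 3), and LPL, lipoprotein lipase, 5.57 to 43.2 and 93.6, 162 and 92.8, not called against batch 1 (1.46). Muscle genes were higher in mouse for 5 of 7 measured (71.4%), but the mice differed widely. CKM, muscle creatine kinase, ran from 6.40 in mouse 7 to 2328 in mouse 6, against 0.0494, 0.629 and 0 in monkeys, log2 difference -7.74 (-6.82 against batch 1, -9.13 against batch 2, -8.48 without mouse 2, -8.48 without mouse 3, -8.48 without mouse 7).

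**Figure D5:**
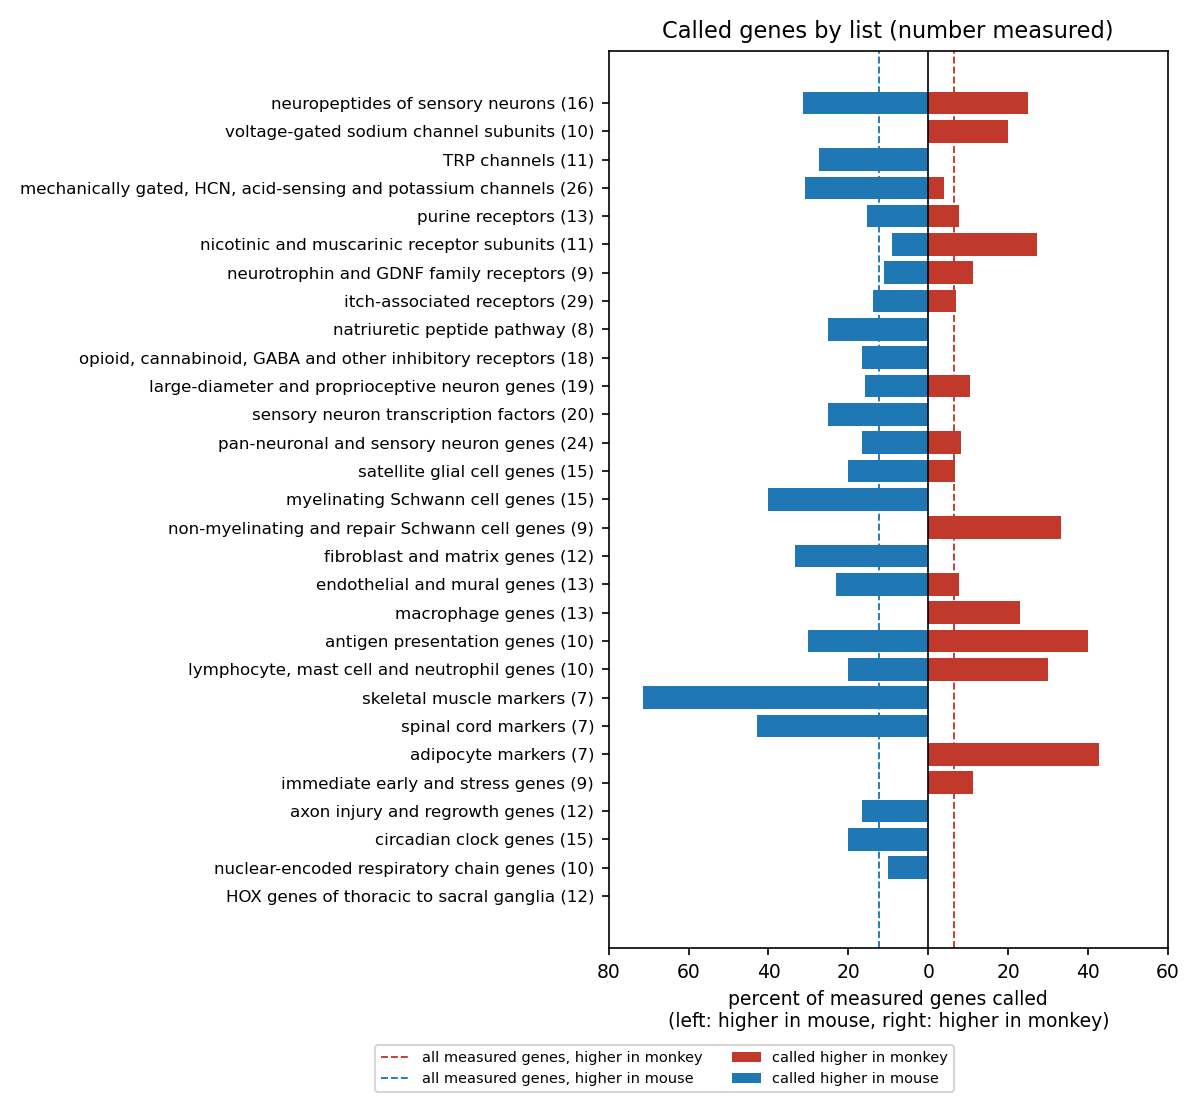
Bars give, for each gene list with at least 7 measured genes, the percent of its measured genes called higher in mouse (left) and higher in monkey (right), with the number measured in brackets. Dashed lines give the same over all 12938 measured genes, 12.3% higher in mouse and 6.49% higher in monkey.

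The 31 lists hold 469 distinct genes, of which 443 were shared and 383 had a median of at least 1 in either species, so a gene low in both species was left out. Over all lists, 36 of the 383 were called higher in monkey and 74 higher in mouse, beside the 6.49% and 12.3% of all measured genes. In 2 smaller groups, 3 of 15 clock genes (20%) were higher in mouse, PER3, NR1D1 and BHLHE41, and of 9 immediate early and stress genes EGR1 (11.1%) was higher in monkey. BHLHE41 was 18.9 to 29.9 in batch 1, 151 to 206 in batch 2 and 7.59, 5.68 and 0.711 in monkeys, log2 difference -4.51 (-1.81 against batch 1, -4.71 against batch 2, -3.86 to -3.78 without any 1 of mice 4 to 7, -5.18 without monkey 1), and was not called against batch 1. PER3 was 8.26 to 153 in mice and 5.51, 1.96 and 0.686 in monkeys, log2 difference -4.36 (-2.72 against batch 1, -5.08 against batch 2, -3.68 without monkey 3), and NR1D1 27.1 to 60.1 and 4.07, 8.15 and 4.79, log2 difference -2.41 (-2.41 against batch 1, -2.46 against batch 2), and both lost their calls with size factors. EGR1, an immediate early gene induced within minutes of stimulation, was 0.0328 to 2.76 in mice and 131, 63.5 and 14.1 in monkeys, log2 difference 5.83 (5.47 against batch 1, 5.92 against batch 2, 5.13 without monkey 1, 6.43 without monkey 3). All 3 monkeys lay above all 7 mice, and the monkeys differed widely among themselves. SDHA, a respiratory chain subunit, was 186 to 299 and 1.83, 1.22 and 3.39, log2 difference -6.40 (-6.37 against batch 1, -6.58 against batch 2), the only call among 10 measured respiratory chain genes. That is 10% of the list, against 12.3% of all measured genes called higher in mouse. SDHA had 37, 17 and 28 counts in monkeys, against 11738 to 18293 in mice. SDHB, a member of the same list singled out after its values were seen, had 11197, 7324 and 2851 counts in monkeys. Whether the low SDHA listing comes from the monkey annotation was not tested.

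The largest differences lay partly in housekeeping genes. Among called genes with a higher median of at least 20, FXYD2, the gamma subunit of the sodium-potassium pump, had the largest mouse-high difference, -11.57 (-11.96 against batch 1, -11.40 against batch 2), at 3128 to 6871 in mice and 0.730, 0.318 and 0.286 in monkeys. It was followed by SDC4, a syndecan, at -9.39 (-5.68 against batch 1, -9.47 against batch 2, -8.55 to -8.53 without any 1 of mice 4 to 7), and the mitochondrial leucyl-tRNA synthetase LARS2, at -8.48 (-10.47 against batch 1, -8.13 against batch 2, -9.42 to -9.37 without any 1 of mice 4 to 7). LARS2 held at least 788681 counts in each batch 1 mouse, 128633 to 189191 in batch 2 mice and 441, 460 and 124 in monkeys. Whether all reads assigned to LARS2 come from that gene was not tested, so its level is uncertain. The largest monkey-high differences were those of RPS27, ARPC4, an actin regulator, at 9.27 (8.96 against batch 1, 9.37 against batch 2, 10.002 without monkey 1, 8.57 without monkey 3), PLIN1 and SPCS1, a signal peptidase subunit listed at 0 in 6 of 7 mice. Further down came interferon-induced genes, UBD (0 to 0.513 in mice and 98.1, 496 and 307 in monkeys, log2 difference 8.27, with 7.98 against batch 1, 8.27 against batch 2 and 7.67 without monkey 2) and MX1 (0.458 to 1.13 and 439, 681 and 264), and the chemokine CCL26, listed at 0 in all mice and 666, 218 and 141 in monkeys. RPGRIP1 was 1.59 to 3.41 in batch 1 and 313 to 369.7 in batch 2, against 0.126, 0.684 and 0 in monkeys, log2 difference -8.12 (-1.78 against batch 1, -8.27 against batch 2, -7.22 to -7.14 without any 1 of mice 4 to 7), and was not called against batch 1. Among 1826 called genes with enough counts to compare, 349 had a transcript length implied by counts and TPM that differed over 2-fold between the tables, against 1373 of 11362 genes in all.

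The most abundant shared genes were not the same in both species. None of the 10 with the highest median in mice was among the 10 of monkeys, while 5 of 10 were shared by the 2 mouse batches. Of the 100 most abundant, 43 were shared between species and 72 between batches. The mouse list included PTGDS, a prostaglandin D synthase of the meninges (5818 to 38195, 1534, 469.99 and 815 in monkeys), and FTH1, the ferritin heavy chain (7786 to 13589 and 4667 to 5015). The monkey list included the neuronal 14-3-3 gene YWHAG (301 to 507 in mice and 6814, 46625 and 14027 in monkeys, log2 difference 5.26, with 5.01 against batch 1, 5.32 against batch 2, 6.37 without monkey 1 and 6.19 without monkey 3), the cytoskeletal adaptor DPYSL2 (98.0 to 474 and 891, 18026 and 10860.2, log2 difference 5.03, with 6.70 against batch 1, 4.67 against batch 2 and 4.15 without monkey 2) and the microtubule gene MAP1B (189.7 to 2334 and 1999, 22990.5 and 11502, not called). All 3 of these were lowest in monkey 1. ACTB, beta-actin, was 769 to 976 in batch 1, 10691 to 11866 in batch 2 and 1706 to 3068 in monkeys, so a common reference gene gave opposite directions against the batches.

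Whole profiles were compared by Spearman correlation of log2(rescaled TPM + 1) across the 15336 shared genes, which are not independent replicates, and pairs within a species also share a table and annotation. The 21 pairs of a mouse and a monkey gave 0.726 to 0.779 with a median of 0.751. Pairs within a mouse batch gave 0.972 to 0.986, pairs between batches 0.931 to 0.948, and the 3 pairs of monkeys 0.877 to 0.937, lowest between monkeys 1 and 3. Every pair across species was lower than every pair within a species.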

How the data were processed

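Bulk RNA-seq of 10 control dorsal root ganglion samples was used, 7 of mice and 3 of monkeys. The authors deposited estimated counts and TPM per gene in 1 table for each species, made with kallisto per the submitters' processing notes. The kallisto version and the monkey transcriptome are not given in the sources used here, and those notes write the build GRCm38 on the monkey samples as well. A row that names no gene, with 0.0919% to 0.141% of the mouse counts, was left out, as were 10 columns of samples outside this comparison.

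Symbols were upper-cased and matched where identical, which leaves out orthologs of differing names. Each sample's TPM was rescaled to 1000000 over the 15336 shared symbols, and log2 ratios of medians used a pseudocount of 1. For the mouse batches, estimated counts were rounded and tested with edgeR 4.0.16 (R 4.3.3), using filterByExpr, TMM, a robust quasi-likelihood fit and Benjamini-Hochberg adjustment. DESeq2 1.42.0 was an alternative. Other steps used Python 3.11.15, numpy 2.4.6 and pandas 2.3.3. The scripts were tested on simulated data. Depth was 13700975 to 52085645 counts per sample, and 3 counts of a gene of median TPM per count came to 0.0425 to 0.174 rescaled TPM. Replicate pairs differed by more than counting error and none was merged.

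The members and gene lists were chosen with earlier results of these data known. The text names every measured peptide, sodium channel, neurotrophin receptor and natriuretic pathway gene. From every other list it may name up to 4 called genes per direction with the largest ratios, or the 2 highest genes where none is called. It may also name the 10 most abundant genes per species and the 10 largest differences per direction at a median of at least 20. Some genes that these rules take are not reported here. Mouse coordinates are those of GENCODE release M21 on GRCm38, found for 166 of 167 such genes. Alternatives were other scales, pseudocount, level and fold thresholds, CPM, each mouse batch, genes of similar implied length and each sample left out. Calls against each batch and the length filter were added after the data were seen.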

Additional observations from a re-analysis of the deposited data

Results flagged for a closer look

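In 11 of 162 named genes, 1 mouse lay far from the other 6 on the log2(TPM + 1) scale. It was judged by its gap to the nearest mouse over the whole range. Chance alone flags about 1 in 20 groups whose values come from a single normal distribution. The 7 mice are of 2 batches that differ in many genes, so that rate need not hold here. The monkeys, with 3 samples, were not examined in this way. All values are rescaled TPM. Mouse 6 was low for the neurotrophin receptor NTRK3, at 20.1 against 26.9 to 33.4 in the other mice. Mouse 1 was low for the macrophage gene CD14, at 5.98 against 9.39 to 12.6, and for the immunoproteasome gene PSMB9, at 12.9 against 24.6 to 35.0. Mouse 1 also had SPCS1 at 1.10, which was listed at 0 in the others. Mouse 7 had the muscle gene MYL1 at 7.32 against 124 to 756. Mouse 3 had the adipocyte gene PLIN1 at 4.36 against at most 0.238. Mouse 2 was high for the immediate early gene EGR1, at 2.76 against at most 0.460, and for the clock gene NR1D1, at 60.1 against 27.1 to 34.7. The ribosomal protein genes were RPL23, at 447 in mouse 5 against 539 to 618, RPS12, at 0.946 in mouse 4 against at most 0.232, and RPS27, at 0.00013 in mouse 4 with lower values in the rest. The counts of RPS27 round to 0 in every mouse, so its gap carries no meaning.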

How the results depend on the processing

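Against 840 genes called higher in monkey and 1594 higher in mouse, median-of-ratios size factors gave 1268 higher in monkey and 1114 higher in mouse, and a 2-fold threshold gave 1660 and 3464. The median over all genes, -0.34, was 0.03 with size factors, -0.22 with the TPM as deposited and -0.47 with CPM. Leaving out 1 sample at a time gave 808 to 1041 and 1447 to 1775 genes, with the highest monkey and the lowest mouse count both without monkey 3. The median Spearman correlation of 0.751 was 0.645 over genes with a median of at least 1 in both species and 0.734 with CPM. The batch test gave 2778 to 3427 higher and 2496 to 3024 lower genes without 1 mouse, lowest without mouse 3, and DESeq2 gave 4012 and 3631. No named gene that was called turned to the other species in the settings tried. With a sample left out, 1 batch or another pseudocount this could not happen, because called groups do not overlap. Only the other scales and CPM could have turned a call. Of 126 named genes called, 76 were measured and kept their call in all 18 settings tried. A further 11 kept it in each setting that held them, 20 lost it when some sample was left out, 33 under another scale, measure or batch, and 52 moved over 1.5 times without some sample. The cause was not tested. No paired analysis was possible because mice and monkeys are different species whose tables were not tested against each other, and the 2 mouse batches share no replicate numbers. Depth limits the monkey values of NPPB, TRPV1, TH, GFRA4 and CARTPT, which rest on few counts, and symbols held by 1 table alone, such as Trpa1 and Scn1a, were not compared.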

Other observations

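Of 13 measured endothelial and mural genes, 1 (7.69%) was called higher in monkey and 3 (23.1%) higher in mouse, against 6.49% and 12.3% of all measured genes. CDH5, the adhesion protein of endothelial junctions, was 5.18 to 22.2 in mice and 1.64, 0.818 and 0 in monkeys, CLDN5, a tight junction protein, 40.8 to 71.5 and 23.2, 8.37 and 3.99, and RGS5, a pericyte gene, 61.8 to 118 and 41.1, 17.2 and 6.77. PECAM1 and VWF, endothelial genes singled out after their values were seen, were not called: PECAM1 was 10.3 to 27.0 and 71.9, 29.0 and 16.8, VWF 15.3 to 78.0 and 34.8, 15.5 and 6.83, and the sum of the 3 endothelial markers PECAM1, CDH5 and KDR was 17.7 to 53.5 in mice and 76.5, 31.7 and 16.9 in monkeys, all with overlap. ACTA2, smooth muscle actin, was 54.7 to 112 and 642, 211 and 324, the only one of the 4 called genes with every monkey above every mouse. Monkey 1 was highest among the monkeys for all 4 of them. ACTA2 was not called without monkey 1 (1.96), against batch 1 (1.65) or with CPM (1.76). CLDN5 and RGS5 lost their calls without monkey 2 (-1.80 and -1.72) and without monkey 3 (-1.60 and -1.45).

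Of 10 measured lymphocyte, mast cell and neutrophil genes, 3 (30%) were called higher in monkey and 2 (20%) higher in mouse. Their median log2 difference was 0.02 and changed sign in 4 of 8 other settings of scale, measure, batch or length. Beside JCHAIN and CD3D, the T helper and macrophage gene CD4 was 0.152 to 0.389 in mice and 16.5, 6.33 and 2.83 in monkeys, log2 difference 2.47 (2.44 against batch 1, 2.51 against batch 2, 3.23 without monkey 3). The mast cell receptor gene KIT, also made by other cells, was 8.97 to 17.9 and 1.70, 4.40 and 1.07, and the neutrophil chemokine receptor CXCR2 10.2 to 18.0 and 0.453, 0.426 and 1.10. KIT lost its call without monkey 1 or 3 (-1.86 and -1.75).

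Neutrophil and myeloid genes varied within each species. S100A8 was 477, 1137 and 1724 in batch 1 mice, 103, 53.8, 139 and 83.5 in batch 2 mice and 987, 58.3 and 76.3 in monkeys, and S100A9 was 290.2, 820.3 and 1184, 54.2, 29.4, 59.8 and 38.0 and 1270.4, 48.0 and 130.1. Monkey 1 exceeded the other monkeys in both, as the batch 1 mice exceeded the batch 2 mice. The fatty acid carrier FABP4 was 88.7, 86.8 and 687 in batch 1, 13.1, 12.1, 10.2 and 12.6 in batch 2 and 2909, 464 and 378 in monkeys, where mouse 3 and monkey 1 were highest. None of these 3 genes was called between species, and all 3 were chosen after their values were seen.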
